A study of Homo sapiens with 6 samples.

Results

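Chromatin accessibility was examined around 8 genes whose enzymes make asparagine, arginine, proline, glutamate and glutamine: ASNS, ASS1, ALDH18A1, PYCR1, GPT2, GOT1, GOT2 and GLUL. The genes were chosen by name, and all 8 of them were found among 19686 protein-coding genes with peak-covered DNA nearby. Every ATAC-seq peak within 50 kb of a gene body was taken, and peaks of the 6 libraries were merged into 123 regions out of 216029 in the genome. The knockdown group was KMS-11 cells given a lentiviral vector labelled LentiV2_ATF4g3, with 3 biological replicates. The control group was KMS-11 cells given the vector labelled LentiV2, also with 3 biological replicates. KMS-11 is an established human multiple myeloma line, labelled plasma cell myeloma, and all 6 libraries carry the genotype label WT. The knockdown rests on 1 guide label and 1 line, and the labels give neither its mode, its timing nor its efficiency. The series title names a complex of ATF4 with p52, the coactivators p300 and CBP, and the repressor BACH1. Whether accessibility near these enzyme genes differs with ATF4 knockdown is the comparison made here.

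ATF4 is a transcription factor whose protein is made when amino acids run short or the endoplasmic reticulum is stressed. It binds C/EBP-ATF response elements as a dimer with other leucine zipper proteins, and ASNS is among its best studied targets. The enzymes described here use shared carbon and nitrogen: transaminases move amino groups between glutamate and other acids, glutamate is the precursor of proline, and aspartate is the precursor of asparagine and of the arginine intermediate argininosuccinate. Plasma cells secrete large amounts of protein and have a high demand for amino acids. ATAC-seq cuts open DNA with a transposase, so a peak marks accessible DNA and is not a measure of a gene's RNA.

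The DNA just before 4 of the annotated starts is shown because 3 of these promoters hold a letter match to a searched motif, and the fourth, ASS1, had the lowest knockdown to control ratio of the gene starts described below. Each run is the 250 bases before the annotated start, 5′ to 3′ on the strand of the gene, from RefSeq on GRCh38.p14. Capitals mark the motif match. The ASNS run is chr7:97872409-97872658 (minus strand), the GOT1 run chr10:99430625-99430874 (minus), the GOT2 run chr16:58734317-58734566 (minus) and the ASS1 run chr9:130444457-130444706 (plus).
ASNS: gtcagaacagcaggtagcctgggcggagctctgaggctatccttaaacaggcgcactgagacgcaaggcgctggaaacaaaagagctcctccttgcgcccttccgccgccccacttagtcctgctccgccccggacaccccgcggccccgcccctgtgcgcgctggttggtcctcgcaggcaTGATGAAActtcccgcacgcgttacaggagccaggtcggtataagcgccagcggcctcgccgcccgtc
GOT1: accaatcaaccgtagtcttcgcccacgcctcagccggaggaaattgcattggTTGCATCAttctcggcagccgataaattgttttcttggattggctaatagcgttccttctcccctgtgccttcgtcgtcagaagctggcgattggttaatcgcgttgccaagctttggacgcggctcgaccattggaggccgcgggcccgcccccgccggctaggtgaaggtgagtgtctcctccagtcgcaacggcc
GOT2: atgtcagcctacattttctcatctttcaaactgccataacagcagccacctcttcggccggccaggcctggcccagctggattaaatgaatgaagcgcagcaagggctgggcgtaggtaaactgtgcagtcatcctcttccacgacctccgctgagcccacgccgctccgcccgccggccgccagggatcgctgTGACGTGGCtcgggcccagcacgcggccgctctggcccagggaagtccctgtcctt
ASS1: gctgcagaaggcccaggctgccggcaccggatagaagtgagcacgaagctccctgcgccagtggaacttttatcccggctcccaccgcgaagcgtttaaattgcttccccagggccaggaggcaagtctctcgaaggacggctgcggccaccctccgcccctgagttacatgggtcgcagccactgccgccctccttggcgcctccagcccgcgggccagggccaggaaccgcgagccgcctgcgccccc

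Counting back from the annotated start, whose nearest upstream base is -1, ASNS holds TGATGAAA at -68 to -61. It matches TGATGNAA, the core of the C/EBP-ATF response element. GOT1 holds the same core on the opposite strand, read as TTGCATCA, at -198 to -191. GOT2 holds TGACGTGGC at -56 to -48, a match to TGACNNNGC, the core of the antioxidant response element that NRF2 and BACH1 bind with small MAF proteins. Both strands of the 250 bases before and the 50 after each start were searched. Of 34961 such promoters in the table, 3.62% held TGATGNAA, 13.4% TGACNNNGC, 1.85% TGACGTCA (the cyclic AMP response element) and 1.65% GGANTTTCC (an NF-kB core). None of the 4 motifs was matched in the promoter windows of ASS1, ALDH18A1 and GLUL. A match describes letters, not binding, and PYCR1 and GPT2 were not searched.

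Each deposited list gives, per peak summit, a fold over local background and a −log10 q, both from the peak caller's test within that library. They are the authors' values and move with depth. From them the pileup at each summit, the number of overlapping sequenced fragments or extended tags, was recovered and divided by the most common local background of the library. This quotient is called pileup over background. That background was 2.51, 2.15 and 2.51 in knockdown replicates 1 to 3 and 3.19, 2.79 and 3.52 in control replicates 1 to 3, so the knockdown libraries were shallower by this measure. The total number of reads is unknown. The lists held 220250 to 222779 summits in knockdown libraries and 225832 to 238246 in controls, and their merged peaks covered 63.0 to 63.9 Mb and 67.0 to 70.7 Mb of DNA. Among 68039 regions with a summit in all 6 libraries, the median knockdown to control ratio of pileup over background was 0.688, and in 56.6% of them every knockdown library lay below every control library. In 1.38% of them every knockdown library lay above. Each ratio below has to be read against that genome-wide background. What accounts for the genome-wide difference was not tested. Plasma cell markers were accessible at a gene end in all 6 libraries for 8 of 8 genes, with a summed −log10 q of 524 to 704 in knockdown libraries and 1097 to 1245 in controls. B cell markers were accessible in all 6 for 1 of 4 genes (PAX5), T and NK cell markers for 4 of 4, epithelial and stromal markers for 4 of 4, and myeloid markers for 0 of 4, with MS4A1 and all 4 myeloid genes lacking a peak in every library. The summed −log10 q was 20.4 to 37.5 against 46.3 to 75.0 for B cell, 180 to 257 against 343 to 430 for T and NK cell, and 109 to 157 against 290 to 303 for epithelial and stromal markers, knockdown libraries before controls. The part of other cell types in the results was not tested. The promoter of ATF4 was accessible in every library, which does not check the knockdown.

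Of the 123 regions near the 8 genes, 41 were found in all 6 libraries (33.3%, against 28.7% of all regions in the genome). A region was found where a peak reaching 2 on the −log10 q scale overlapped it, and missing where no listed peak did. Regions found in the 3 control libraries alone numbered 4 (3.25%, against a genome background of 1.5%), and 0 were found in the 3 knockdown libraries alone (background 0.102%). Of the 4, 2 stood near ASNS, 1 near ASS1 and 1 near PYCR1. The other 78 regions fell into neither pattern. Counted per library, the listed peaks of the windows, whatever their −log10 q, made 94, 85 and 90 regions in knockdown replicates 1 to 3. Control replicates 1 to 3 had 96, 97 and 90. These counts include peaks below 2 on the −log10 q scale, so they are not counts of regions found as defined above. The group means, 89.7 ± 4.51 in knockdown and 94.3 ± 3.79 in control libraries (SD, n = 3 each), were not separated by an exact permutation test (two-sided p = 0.3). Regions reaching 10 on that scale numbered 32, 33 and 36 in knockdown libraries, against 43, 45 and 44 in controls. For this count the groups did not overlap, with means of 33.7 ± 2.08 in knockdown and 44 ± 1 in control libraries (exact permutation test, two-sided p = 0.1, the smallest that 3 against 3 allows). A −log10 q moves with depth, and the knockdown libraries were the shallower ones. No genome-wide count at this level stands beside it, so the separation is not a result about these 8 genes.

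At the 8 gene starts or ends a peak was listed in every library, and pileup over background was lower in every knockdown library than in every control library at 6 of them: ASNS, ASS1, GPT2, GOT1, GOT2 and GLUL. Among the 15058 shared regions within 1 kb of any gene end, 66.1% showed that separation and the median ratio was 0.728. ALDH18A1 and PYCR1 were the 2 with overlapping groups. With pileup divided by local instead of library background, the knockdown to control ratio was 1.12 at ASNS, 1.01 at PYCR1, 1.02 at GPT2 and 1.003 at GOT1, so no decrease showed at these 4 by that measure. The authors' fold, which adds 1 to pileup and local background, averaged 17.5 in knockdown and 16.3 in control libraries at ASNS, 9.61 and 9.81 at PYCR1, 17.5 and 17.7 at GPT2, and 14.9 and 15.6 at GOT1. It was lower in knockdown at the other starts, at 7.45 and 8.75 for ASS1, 14.0 and 15.3 for ALDH18A1, 16.2 and 19.9 for GOT2, and 10.3 and 12.4 for GLUL. Over all 41 shared regions of the 8 windows, 24 (58.5%) showed that separation, close to the background of 56.6%. Their median ratio was 0.677, against 0.688 over all shared regions, with a range of 0.427 to 1.14. The share and the median were thus near those of the genome.

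**Figure D1:**
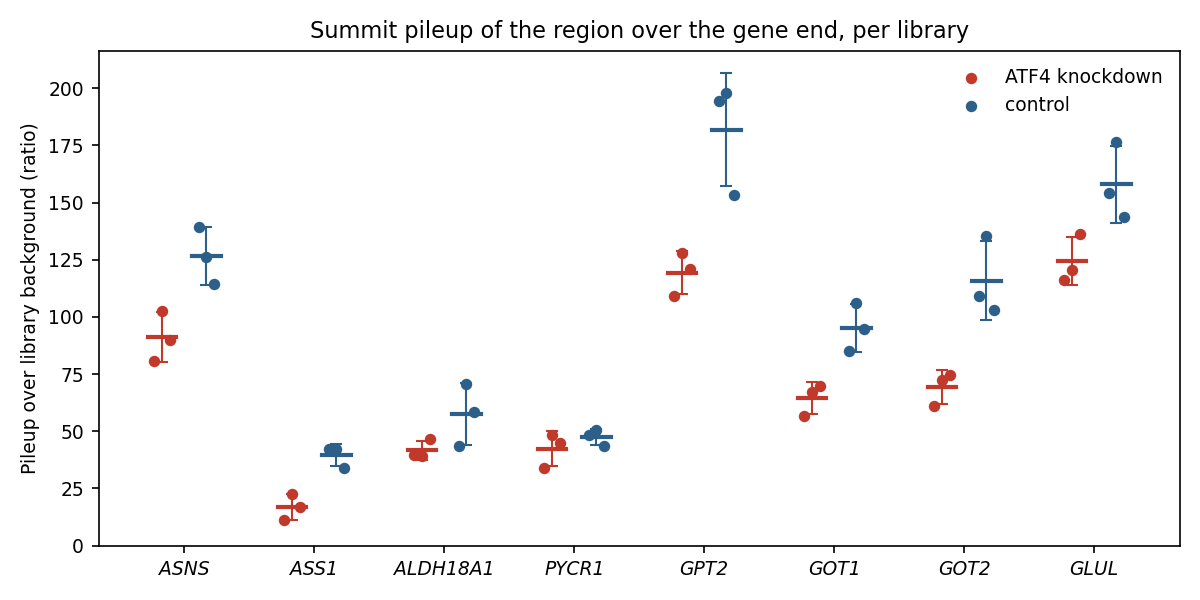
Summit pileup over library background (vertical axis, a ratio) at the region over the start or gene end of each of the 8 enzymes, with ATF4 knockdown libraries to the left of controls. Points are single libraries and lines mark means ± SD; knockdown libraries lie below controls without overlap at 6 of 8 genes, and ASS1 has the lowest mean of the 8 in both groups.

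ASNS encodes asparagine synthetase, which makes asparagine from aspartate with an amino group taken from glutamine. Its window on chromosome 7 (gene body 97851677 to 97928441, minus strand, hg38) held 9 regions, no other protein-coding gene, and 3 regions shared by all 6 libraries. The start region, 97871650 to 97872746, covers the annotated start at 97872408 and the response element shown above. Its summit pileup was 203, 221 and 226 in knockdown replicates 1 to 3, against 445, 352 and 402 in control replicates 1 to 3. Divided by library background the values were 80.9, 103 and 90 in knockdown libraries, against 139, 126 and 114 in controls. Means were 91.2 ± 11 in knockdown and 127 ± 12.7 in control libraries, a ratio of 0.721, and 57.6% of all shared regions had a lower ratio. The groups did not overlap, but this promoter stood near the middle of the genome-wide range. The authors' −log10 q was 174, 192 and 193 in knockdown libraries, against 375, 279 and 327 in controls. Their fold over local background was 17.3, 17.9 and 17.2 in knockdown libraries, against 17.4, 15.3 and 16.1 in controls, and did not separate the groups. The local background here was 4.31 to 7.91 times that of the library. The peak was 1010 to 1031 bp wide in knockdown libraries and 1033 to 1070 bp in controls. The summit lay 94, 63 and 89 bases before the start in knockdown libraries, against 65, 115 and 80 in controls, beside or on the TGATGAAA match. At the far 5′ end of the gene body, 97928441, only knockdown replicate 1 and control replicate 3 had a peak, with a pileup of 13 and 15.

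Both other ASNS regions shared by all 6 libraries had lower ratios than the promoter. A region 99.7 kb upstream of the start (97971467 to 97972711, in no protein-coding gene, with OCM2 the nearest at 12.0 kb) had a pileup of 59, 73 and 80 in knockdown libraries, against 218, 225 and 187 in controls. As pileup over background this was 23.5, 34 and 31.9 in knockdown libraries, against 68.3, 80.6 and 53.1 in controls. Every knockdown library was thus well below every control library. The means, 29.8 ± 5.53 in knockdown and 67.4 ± 13.8 in control libraries, gave a ratio of 0.442, and 5.75% of shared regions had a lower one. The authors' −log10 q was 40.1, 55.9 and 58.7 in knockdown libraries, against 185, 200 and 149 in controls. Unlike at the promoter, fold over local background separated the groups too, at 10.3, 12.7 and 12.0 in knockdown libraries and 17, 18.6 and 14.9 in controls, and the ratio over local background was 0.754. Peak width did not: it was 1185 to 1245 bp in knockdown libraries and 1213 to 1227 bp in controls. Scaled covered length went the other way from pileup, at a log2 difference of 0.10 (adjusted p = 0.362) that passed when only peaks reaching 2 (0.24, adjusted p = 0.0364) or 5 (0.39, adjusted p = 0.0055) on the −log10 q scale were kept, by limma. Beyond the 3′ end, 15.8 kb from the gene body, the region 97835143 to 97835896 had a pileup of 29, 28 and 28 in knockdown libraries, against 89, 65 and 58 in controls. Its ratio of pileup over background was 0.528, with 15.3% of shared regions lower.

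Closer to the 3′ end of ASNS, 5.76 kb from the gene body, the region 97845497 to 97845914 had no listed peak in any knockdown library. Control replicates 1 to 3 had a pileup of 25, 34 and 17 there, with −log10 q of 12.7, 22.4 and 5.05. These are 7.84, 12.2 and 4.83 times library background, while the lowest pileup listed on flat background in the knockdown libraries was 2.79 times theirs. Its local background in the controls was 1 to 1.07 times that of the library. A weaker region 32.1 kb from the gene body, 97819235 to 97819545, was likewise listed in the controls alone, with a pileup of 16, 11 and 12 and −log10 q of 5.31, 2.58 and 2.25. Covered length differed by -1.20 (adjusted p = 0.0794) at the nearer region and by -0.96 (adjusted p = 0.101) at the farther one, on the log2 scale by limma over all regions, knockdown minus control. Neither passed the threshold of 0.05, although the nearer one did when only peaks reaching 2 (-1.16, adjusted p = 0.0420) or 5 (-1.12, adjusted p = 0.0103) on the −log10 q scale were kept. Both regions were picked for having no listed peak in any knockdown library, so the sign of these differences was fixed by that choice. The test adds no separate support.

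ASS1 encodes argininosuccinate synthase, which joins citrulline and aspartate in the pathway to arginine. Its window on chromosome 9 (gene body 130444707 to 130501274, plus strand) held 32 regions, of which 21 were found in 1 library each and 3 were shared by all 6. The start region, 130444281 to 130445366, had a summit pileup of 28, 49 and 42 in knockdown libraries, against 135, 118 and 120 in controls. Pileup over background was 11.2, 22.8 and 16.7 in knockdown libraries, against 42.3, 42.3 and 34.1 in controls. Means of 16.9 ± 5.82 in knockdown and 39.6 ± 4.74 in control libraries gave a ratio of 0.427, the lowest of the 41 shared regions near the 8 genes, and 4.74% of all shared regions had a lower one. The authors' −log10 q was 12.3, 31.1 and 23.6 in knockdown libraries, against 80.7, 72.0 and 63.2 in controls. Their fold over local background overlapped, at 5.58, 9.12 and 7.65 in knockdown libraries and 9.19, 9.37 and 7.69 in controls, and over local background the ratio was 0.952. Knockdown replicate 1 had the lowest pileup and the widest peak, 1086 bp, against 516 to 651 bp in controls. Covered length of the region did not pass the limma threshold (log2 0.34, adjusted p = 0.484). Summits lay 122, 126 and 131 bases after the annotated start in knockdown libraries and 133, 131 and 145 in controls, between the 2 annotated starts of the gene, so the summit is downstream of the run shown above, while the region includes it.

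Inside ASS1, a region 2.83 kb from the second annotated start (130447788 to 130448600) had no peak in knockdown replicate 1 and a pileup of 18 and 14 in knockdown replicates 2 and 3, against 65, 92 and 102 in controls. The −log10 q was 3.53 and 1.68 in those 2 knockdown libraries, against 17.3, 41.9 and 40.8 in controls. Peaks covered 0, 180 and 177 bp in knockdown libraries, against 755, 813 and 808 bp in controls. This was the smallest adjusted p of the 77 tested regions near the 8 genes, at 0.0729 (log2 difference -1.63, SE 0.28, limma over 114713 regions), and it missed the threshold of 0.05. It passed under 5 of the other settings tried, the direction being the same in all of them. Without scaling, 3950 of 114713 regions were called lower, without the filter 1554 of 216029, and with equal lists 2584 of 107088. With only peaks reaching 2 or 5 on the −log10 q scale, 5826 of 98253 and 7682 of 76793 were lower. No knockdown peak in this ASS1 region reached 5, so that setting kept control peaks alone and adds no separate support. A further region 6.53 kb from the second annotated start (130451491 to 130451978, picked after its values were seen) had a pileup of 10 and 14 in knockdown replicates 1 and 2 and no peak in replicate 3, against 55, 47 and 47 in controls (log2 -1.08, adjusted p = 0.112, but 0.00264 with only peaks reaching 5 on the −log10 q scale). No knockdown peak there reached 5, so that setting kept control peaks alone and its small p adds no separate support. Deeper in the gene, 130461203 to 130461653 had a pileup of 29, 22 and 33 in knockdown libraries, against 53, 61 and 56 in controls, a ratio over background of 0.642 near the genome median. The region found in controls alone, 130432426 to 130432731, lies inside the neighbour HMCN2, 12.0 kb from ASS1, with a pileup of 15, 14 and 15 in controls (log2 -0.97, adjusted p = 0.0988). The sign of that difference follows from how the region was picked.

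**Figure D2:**
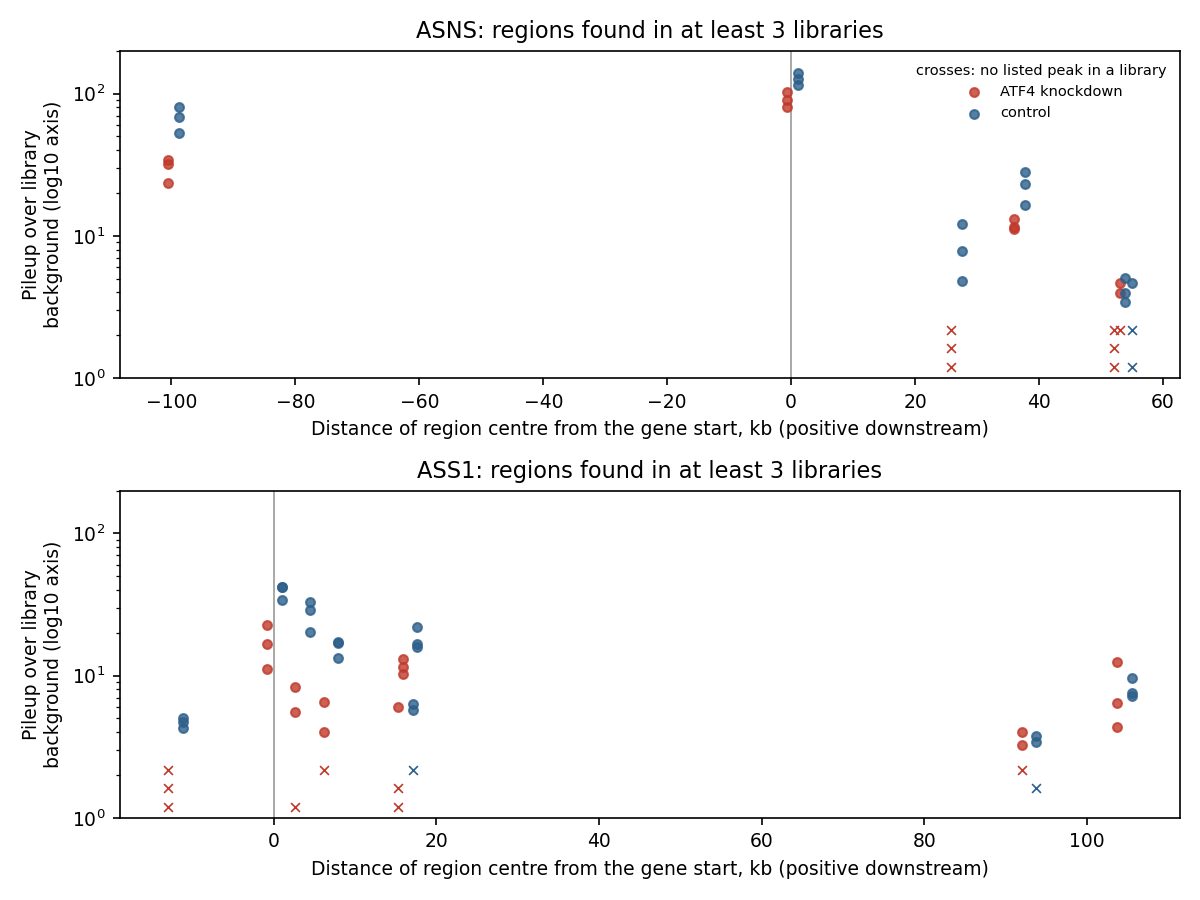
Pileup over library background (log10 axis) of regions found in at least 3 libraries, by distance of the region centre from the annotated start in kb, for ASNS (top) and ASS1 (bottom). Points are single libraries and crosses mark libraries with no listed peak; the ASNS region 99.7 kb upstream and the ASS1 start lie lower in all knockdown libraries than in any control.

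The 2 proline enzymes had promoters at which the groups overlapped. ALDH18A1 encodes the enzyme that turns glutamate into the semialdehyde from which proline is made. Its start region on chromosome 10 (95655588 to 95657086) had a pileup over background of 39.4, 39.1 and 46.6 in knockdown libraries, against 43.6, 70.6 and 58.5 in controls. Control replicate 1 lay below knockdown replicate 3. The ratio of the means, 41.7 ± 4.25 in knockdown and 57.6 ± 13.5 in control libraries, was 0.725. All 5 regions of its window but 1 were shared by all 6 libraries, and 1 of the strongest others lies over the end of a neighbour, TCTN3 (ratio 0.715). PYCR1 encodes a mitochondrial reductase for the last step of proline synthesis. The region over its end at 81937300 on chromosome 17 (81936609 to 81937694) had a pileup over background of 33.9, 48.4 and 45.0 in knockdown libraries, against 48.6, 50.5 and 43.5 in controls. Its ratio was 0.892 (42.4 ± 7.60 in knockdown and 47.5 ± 3.65 in control libraries), and 84.3% of shared regions had a lower one. Authors' −log10 q values there were 47.6, 70.6 and 70.2 in knockdown libraries, against 98.3, 92.5 and 88.1 in controls.

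The PYCR1 window is crowded, with 9 other protein-coding genes, 20 regions and 12 shared by all 6 libraries. Their median ratio of 0.833 was the highest of the 8 windows, and 1 of them, over an end of ASPSCR1 (81976678 to 81978345), reached 1.14. Regions over ends of ALYREF and PCYT2 had ratios of 0.832 and 0.948, with overlapping groups. Within PCYT2, the region 81906959 to 81907177 was found in the controls alone, with a pileup of 35, 35 and 49 and −log10 q of 2.32, 3.00 and 6.91 on a local background 5.27 to 5.77 times that of the library (log2 difference of covered length -0.98, adjusted p = 0.0788, but 0.0368 with only peaks reaching 2 on the −log10 q scale). It was picked for having no listed peak in knockdown libraries, which fixed the sign of that difference.

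Among the transaminases, GPT2 makes alanine and 2-oxoglutarate from glutamate and pyruvate in mitochondria, GOT1 is the cytosolic and GOT2 the mitochondrial aspartate aminotransferase. The GPT2 region on chromosome 16 (46883605 to 46884990) had a pileup over background of 109, 128 and 121 in knockdown libraries, against 194, 198 and 153 in controls, the highest control mean of the 8 genes. The groups did not overlap, and the means of 119 ± 9.49 in knockdown and 182 ± 24.7 in control libraries gave a ratio of 0.656. A region just inside the other end of GPT2 (46929470 to 46930333) had a pileup of 41, 40 and 45 in knockdown libraries, against 90, 71 and 99 in controls, at a ratio over background of 0.646. The strongest other region of the window, over an end of DNAJA2, had a ratio of 0.707. All of these lie near the genome median.

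GOT1 has its start region at 99430267 to 99431537 on chromosome 10. Pileup over background there was 56.6, 67.0 and 69.7 in knockdown libraries, against 85.0, 106 and 94.6 in controls, without overlap. The ratio was 0.677 (64.4 ± 6.94 in knockdown and 95.2 ± 10.6 in control libraries), and 47.3% of shared regions had a lower one. Summits lay 221, 238 and 238 bases before the start in knockdown libraries and 230, 248 and 251 in controls, upstream of the TTGCATCA match. A weak region 5.45 kb upstream of the gene (99436075 to 99436460) did not separate the groups, with a pileup of 24, 11 and 25 in knockdown libraries, against 19, 33 and 24 in controls, and a ratio of 1.001. Inside the neighbour CNNM1, 99370852 to 99371773 had a pileup of 13, 30 and 27 in knockdown libraries, against 56, 44 and 49 in controls, and a ratio over background of 0.633 with overlapping groups.

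GOT2 had the lowest ratio of the 3 transaminase starts. In its start region on chromosome 16 (58733322 to 58734689) the pileup was 153, 156 and 187 in knockdown libraries, against 348, 378 and 362 in controls. Pileup over background averaged 69.3 ± 7.32 in knockdown and 116 ± 17.3 in control libraries, a ratio of 0.599, and 28.5% of shared regions had a lower one. Unlike at the GPT2 start, fold over local background separated the groups as well, at 14.5, 17.2 and 16.8 in knockdown libraries and 19.5, 21.1 and 19.2 in controls. Summits lay 43 to 62 bases before the start in all 6 libraries, a span that includes the TGACGTGGC match. The region over an end of SLC38A7, a glutamine transporter gene, had a ratio of 0.605, while a region 21.8 kb upstream of GOT2 (58756068 to 58756929) had overlapping groups and a ratio of 0.972.

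GLUL encodes glutamine synthetase, which makes glutamine from glutamate and ammonia. Over its start on chromosome 1 (182390665 to 182392189), pileup over background was 116, 120 and 136 in knockdown libraries, against 154, 176 and 143 in controls. The ratio was 0.787 (124 ± 10.5 in knockdown and 158 ± 16.8 in control libraries), so the groups did not overlap although 71.1% of shared regions had a lower ratio. The summit lay 2 and 28 bases before the first annotated start in knockdown replicates 1 and 3, against 317 bases after it in knockdown replicate 2 and 375 to 382 bases after it in controls, near the second annotated start at 182391341. Regions away from the GLUL start had lower ratios than the start. At 182430461 to 182431248, 38.7 kb upstream of the gene, the pileup was 74, 70 and 101 in knockdown libraries, against 183, 201 and 210 in controls, a ratio over background of 0.541. At 182396780 to 182397176, 4.99 kb upstream of GLUL and 0.941 kb from TEDDM1, it was 40, 34 and 57 in knockdown libraries, against 96, 128 and 87 in controls, also a ratio of 0.541. Of all shared regions, 17.4% had a lower ratio than these.

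**Figure D3:**
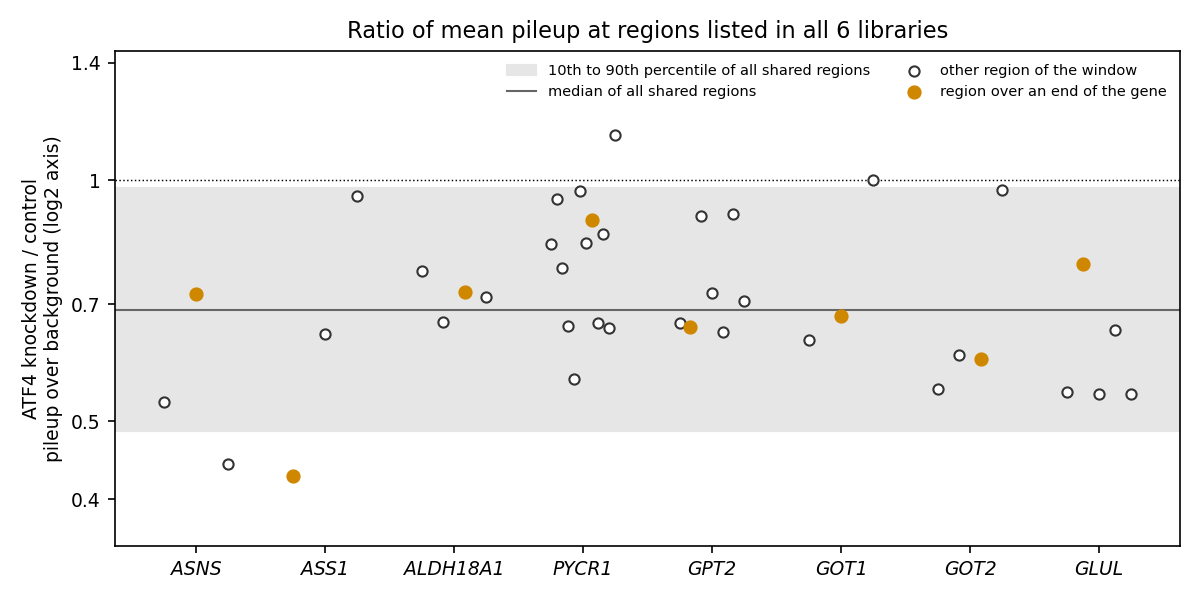
Ratio of mean pileup over background, ATF4 knockdown over control (log2 axis), for each region with a summit in all 6 libraries, by enzyme gene window. Regions of the ASS1, ASNS and GLUL windows reach 0.427, 0.442 and 0.541, while the PYCR1 window has a median of 0.833, against 0.688 over all shared regions.

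Peak-covered length was the measure tested across the genome. It counts the bases under listed peaks within 50 kb of a gene body, scaled to the same total per library, and was compared with limma on log2 of the length plus 200 bp over 19686 genes. None of the 8 enzymes passed an adjusted p of 0.05, whereas 2.67% of all genes did in the lower and 2.88% in the higher direction. At an unadjusted p under 0.05, 2 of the 8 were lower (ASS1 and GOT1) and 0 higher, against 13.3% lower and 8.91% higher of all genes. The ASS1 window had 5080, 4348 and 4539 bp in knockdown libraries, against 7025, 5287 and 5430 bp in controls. The difference was -0.32 on the log2 scale (SE 0.12, 95% interval -0.58 to -0.07, adjusted p = 0.120), with the groups not overlapping. ASS1 was lower under every alternative setting tried and passed the threshold under 3 of them, with adjusted p values from 0.0124 to 0.0349. These 3 settings called 4136 of 19686 genes lower without scaling, 905 of 19297 at −log10 q of at least 5, and 1037 of 19868 in 100 kb windows. Without control replicate 1 the ASS1 difference was -0.20 (adjusted p = 0.431). The GOT1 window had 1789, 2157 and 1696 bp in knockdown libraries, against 2293, 2767 and 2316 bp in controls (log2 -0.36, SE 0.15, adjusted p = 0.188), also without overlap. With only peaks reaching 5 on the −log10 q scale the GOT1 difference was -0.033. ASNS had 3885, 3314 and 2961 bp in knockdown libraries, against 3307, 3799 and 3589 bp in controls. Here the groups overlapped, and the 95% interval of the log2 difference of -0.08 ran from -0.34 to 0.19 (adjusted p = 0.772). Its sign turned when only peaks reaching 2 or 5 on the −log10 q scale were kept, at 0.038 and 0.16.

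The remaining 5 enzymes had log2 differences of covered length from -0.13 to 0.10. PYCR1 (-0.08, adjusted p = 0.538, but 0.25 and adjusted p = 0.0157 with only peaks reaching 5 on that scale) and GLUL (-0.13, adjusted p = 0.418) had knockdown libraries all below controls, with 10992 ± 496 and 5591 ± 314 bp in knockdown, against 11612 ± 184 and 6130 ± 164 bp in control libraries. GPT2 (-0.12, adjusted p = 0.546), ALDH18A1 (0.10, adjusted p = 0.687) and GOT2 (0.09, adjusted p = 0.764) had overlapping groups, and without scaling the last 2 turned, to -0.025 for ALDH18A1 and -0.033 for GOT2. In all, 4 of the 8 genes had every knockdown library below every control library, against a background of 16.8% of genes, and 0 had every one above, against 9.63%. The median log2 difference was -0.10 for the 8 genes and -0.04 for all genes tested. Of single regions near the 8 genes, 77 were tested by limma and 0 passed, against 0.0349% lower and 0.000872% higher of all regions tested, while 9 were lower and 2 higher at an unadjusted p under 0.05, against 13.8% lower and 3.07% higher of all regions tested. With only peaks reaching 2 on the −log10 q scale, 60 regions near the 8 genes were tested. Of these, 4 passed as lower and 3 as higher, against 5.93% and 3.6% of all regions tested. With only peaks reaching 5, 46 were tested, and 5 passed as lower and 10 as higher, against 10% and 14.7%. The higher ones then included the start regions of ASNS (0.36, adjusted p = 0.0083), GPT2 (0.33, adjusted p = 0.0244) and ALDH18A1 (0.28, adjusted p = 0.0437). Before scaling, mean covered length at these starts was not greater in knockdown than in control libraries. It was 1021 against 1054 bp at ASNS, 1128 against 1198 bp at GPT2 and 1214 against 1343 bp at ALDH18A1. These starts were thus higher only relative to the library total. In simulated data of this size the region test found 18% of regions changed by 1 on the log2 scale and 2% of those changed by 0.5. The gene test found 99% and 63% of genes. A region that differs can thus easily miss the threshold here. Changes were simulated only in features with a longer covered length, which leaves out genes as short in covered length as ASNS, ALDH18A1, GOT1 and GOT2. The shares found do not extend to these.

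**Figure D4:**
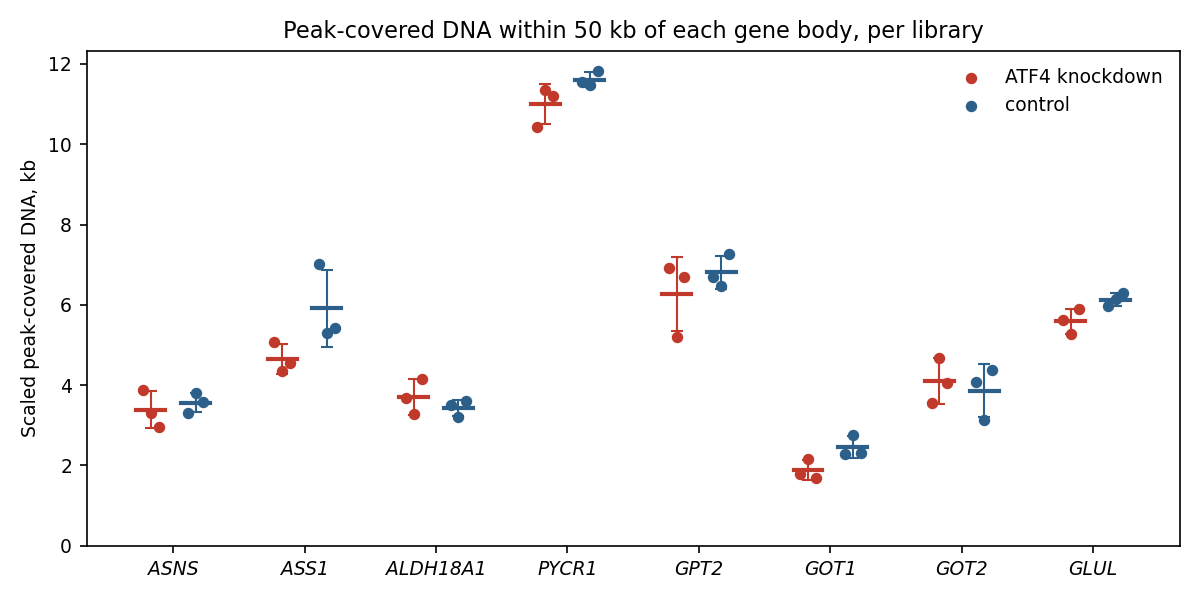
Scaled peak-covered DNA in kb within 50 kb of each of the 8 gene bodies, with ATF4 knockdown libraries to the left of controls, points for single libraries and lines for means ± SD. Knockdown libraries lie below controls without overlap for ASS1, PYCR1, GOT1 and GLUL, and no gene passed the adjusted threshold.

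A list of 22 other genes of the same pathways gave 0 genes past the threshold by limma, with 13 estimates below and 9 above zero and a median log2 difference of -0.02. Of all 19686 genes tested, 11496 had an estimate below and 8190 above zero, with a median of -0.04. An unadjusted limma p under 0.05 was reached by 3 genes of the list, against 13.3% lower and 8.91% higher of all genes. GAD2 and ASRGL1 were among those 3. GAD2, a glutamate decarboxylase, had 6398, 4096 and 5252 bp in knockdown libraries, against 3887, 4092 and 3760 bp in controls, with knockdown replicate 2 almost level with control replicate 2 (log2 0.38, SE 0.14, adjusted p = 0.116, turning to -0.24 with only peaks reaching 5 on the −log10 q scale). It passed without knockdown replicate 2 (0.55, adjusted p = 0.0203) and in 100 kb windows (0.40, adjusted p = 0.0117), and was 0.24 without knockdown replicate 1. ASRGL1, which breaks down asparagine, had overlapping groups (log2 -0.26, adjusted p = 0.139). It passed without scaling, in 100 kb windows and without knockdown replicate 3, with adjusted p values from 0.0214 to 0.0416. The genes whose scaled covered length followed that of ASNS most closely over the 6 libraries were CCNYL1 (Pearson r = 0.987), SNPH (0.986) and GPR85 (0.981), all more than 1 Mb away. In all, 18 genes reached an r of 0.95. These are descriptions over 6 libraries, which the genes share.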

How the data were processed

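ATAC-seq was measured in 3 ATF4 knockdown and 3 control libraries of KMS-11, with nuclei tagmented by Tn5 per the labels' protocols. Per the submitters' processing notes, MACS2 and hg38 were used, with 1 list per library. Neither MACS2's version and settings nor the aligner, read filters or transposase shift are stated in what was used here. The effect of these settings on the position and width of peaks was not tested.

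The deposited lists give the fold over local background (a ratio), −log10 p and −log10 q, and a score. That deposited score equals 10 times −log10 p, capped at 1000, and was used only to check columns. All listed summits have a −log10 p of at least 2. Chromosome Y and unplaced sequences (6 to 16 summits per list) were left out. Summit pileup and local background were solved from fold and −log10 p, which were matched within 0.01 for 100% of summits. Pileup over background was described, not tested.

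Peaks with −log10 q of at least 2 were merged into regions, with an overlap of 1 bp or more counted. Covered lengths were compared with limma 3.58.1 (R 4.3.3; trend and robust), all 6 libraries, no covariate, genes or regions covered in at least 3 libraries, Benjamini-Hochberg adjustment over all features. The gene and region tests were tested on simulated data. For the number of regions in each library, an exact permutation test was run with scipy 1.17.1. Replicates are labelled as biological, with no word on separate cultures, so p-values measure the spread between these libraries, which may be technical. Gene positions, promoters and their strands are from RefSeq tables on GRCh38.p14, which match hg38 by build. A gene end is within 1 kb of an annotated end. Likeness to ASNS was the Pearson correlation of scaled log2 covered length.

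The members and lists were chosen with earlier results of these data known. Named were all 8 genes, the region over each start or end, the 2 other regions with the highest mean −log10 q per window, regions found in 1 group alone, regions past the threshold, and the 3 pathway genes with the smallest p. A few items that this rule or the lists would name are not reported here. Alternatives changed the scaling, peak threshold, list length, added length, filter, window, replicate block and libraries. Same-numbered libraries correlated below 0.1, so the numbers were not taken as pairs.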

Additional observations from a re-analysis of the deposited data

How the results depend on the processing

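No named gene passed the threshold in the analysis reported, and the counts over all genes and regions moved widely with the settings. Without scaling, 4136 genes were lower and 3950 regions lower and 277 higher, and the median of all genes shifted to -0.16. With peaks of −log10 q of at least 2, genes numbered 194 lower and 149 higher and regions 5826 and 3538. At 5 or more they were 905 and 3606 genes and 7682 and 11307 regions, with a median of all genes of 0.10. With lists of equal length they were 228 and 226 genes and 2584 and 1070 regions. A 10 kb window gave 123 lower and 126 higher genes, and a 100 kb window 1037 and 1038. Adding 50 bp gave 0 regions either way, 1000 bp gave 222 and 13, and no filter gave 1554 and 121. Leaving out a library gave 99 to 583 genes lower, 192 to 549 higher, and 0 regions. The lower and higher gene counts were 265 and 349 without knockdown replicate 1, 190 and 364 without control replicate 1, 113 and 241 without control replicate 2, and 99 and 192 without control replicate 3. The replicate block gave 632 lower and 672 higher genes and 0 regions in either direction, and at the gene level every library correlated best with its own number (0.04 to 0.06), a hint from the data only that did not hold over regions for number 3 (-0.0028).

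Members passed the threshold under 3 settings. Without scaling, ASS1, GOT1, PYCR1 and GLUL were lower, against 4136 lower of all 19686 genes tested. With −log10 q of at least 5, ASS1 was lower (-0.64, adjusted p = 0.0124) and ALDH18A1 (0.40) and PYCR1 (0.25) higher. There 905 genes were lower and 3606 higher of 19297 tested. In 100 kb windows ASS1 was lower (-0.35), against 1037 lower of 19868 genes tested. The ASS1 region at 130447788 passed without scaling (-1.70), without the filter (-1.63), at −log10 q of at least 2 (-1.86) or 5 (-2.14), and with equal lists (-1.57). At 5 or more no knockdown peak was left in that region. Near the 8 genes 7 of 60 tested regions passed with peaks reaching 2 on the −log10 q scale, 4 of them lower. Over all tested regions, 5.93% were called lower there and 3.6% higher. With peaks reaching 5, 15 of 46 passed, 10 of them higher, against 14.7% of all tested regions higher and 10% lower. The ASS1 region alone passed in the other 3 settings. Without scaling it was 1 of 77 tested, against 3950 of 114713 lower in the genome. Without the filter it was 1 of 123, against 1554 of 216029, and with equal lists 1 of 71, against 2584 of 107088. Estimates that changed sign were ASNS at −log10 q of at least 2 (0.038) and 5 (0.16), PYCR1 there (0.032 and 0.25) and in 10 kb windows (0.010), ALDH18A1 (-0.025) and GOT2 (-0.033) without scaling, and GAD2 at 5 or more (-0.24). Leaving out libraries gave -0.17 to 0.011 for ASNS (highest without knockdown replicate 3), -0.050 to 0.18 for GOT2 (lowest without control replicate 2), -0.20 to -9.7e-05 for GPT2 (highest without knockdown replicate 2) and 0.014 to 0.18 for ALDH18A1 (lowest without knockdown replicate 3). It gave pileup ratios of 0.905 to 1.03 for the PYCR1 region at 81910867, 0.881 to 1.29 for the GOT1 region at 99436075 and 0.882 to 1.06 for the GOT2 region at 58756068. Over local background, the pileup ratios of ASNS (1.12), PYCR1 (1.01), GPT2 (1.02) and GOT1 (1.003) starts turned. Regions found in controls alone numbered 1 at −log10 q of at least 5 or in 10 kb windows, with 21 found in all 6 in those windows, and 7 with equal lists, with 1 found in knockdown alone there and with any listed peak. Leaving out a library gave 4 to 7 in controls alone (7 without control replicate 1) and 0 to 1 in knockdown alone (1 without knockdown replicate 3). No genome share under these settings stands beside these counts, so they cannot be read as a result about the 8 genes. The causes of these moves were not tested. Depth limits the weakest regions: the lowest pileup listed on flat background was 2.79 times background in knockdown and 2.51 to 2.56 times in control libraries.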
